A study of Mus musculus with 4 samples.

Results

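The 10 genes described here, Vangl1, Vangl2, Celsr1, Fzd3, Fzd6, Dvl3, Ptk7, Emx2, Gpsm2 and Gnai3, set the plane in which hair cells are oriented, and they were taken by gene symbol from the 23420 genes of the deposited score tables. All 10 were found in each table, and all 10 passed the minimum of 100 reads over the 12 libraries, with 11362 reads for Vangl1 at the low end and 71318 for Celsr1 at the high end. RNA was sequenced from cochlear cells of Atoh1-GFP transgenic mice on a CD-1 background, whose hair cells fluoresce because GFP follows Atoh1, the transcription factor of developing hair cells. Cochleae were taken on postnatal day 1 and kept overnight as organ cultures in medium with penicillin, which every group received, and then were either left without gentamicin (control) or given 0.5 mM gentamicin for 3 h. Cells were sorted into GFP-positive hair cells and GFP-negative non-hair cells, with weakly fluorescent cells left out, which gave 4 groups: control hair cells, gentamicin-treated hair cells, control non-hair cells and gentamicin-treated non-hair cells. Each group has 3 replicates, each prepared from a sort of many cells. The non-hair cells are a mixture of Deiters' cells, pillar cells, Hensen cells, cells of the greater and lesser epithelial ridges and tissue around the epithelium. The model is therefore an acute drug exposure of immature cochlear tissue in culture, read from a sorted bulk population.

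Planar cell polarity is the alignment of cells within the plane of an epithelium, and the organ of Corti, where the V-shaped hair bundles all point the same way, is a classic place to see it. A core set of membrane proteins (Vangl, Celsr and Frizzled) and their cytoplasmic partners (Dishevelled, Prickle) settles on opposite sides of the junctions between neighbouring cells and so passes direction from cell to cell. Inside each hair cell a separate machinery, with Gpsm2 and the inhibitory G protein subunit Gnai3 at its centre, marks the bare side of the apical surface, guides the kinocilium and later sits at the tips of the tallest stereocilia. Because the core proteins work between hair cells and their neighbours, both sorted populations are of interest here.

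The values are normalized read scores: the reads on a gene divided by a factor of the library, with 1 added, so that a score of 1 means no reads. They carry no division by gene length. Between 22395037 and 28146016 reads lay on genes in a library. The hair cell identity of the GFP-positive libraries held for all 7 markers checked, among them Atoh1, Pou4f3 and Myo7a: their summed scores lay between 8890 and 11050 in the 6 hair cell libraries and between 202 and 305 in the 6 non-hair cell libraries. No other cell type checked was wholly without reads in the hair cell libraries. Mesenchymal markers, 5 in all, summed to 174, 184 and 440 in control hair cells when ordered by size, with the highest value in replicate 2, and to 89.0 to 142 in treated hair cells, against 4728 to 8908 in non-hair cells. Supporting cell markers, 8 in all, overlapped between the populations: they summed to 1493 to 1797 in control hair cells and to 1082 to 1654 in control non-hair cells. In a bulk sample, fewer cells of a type and less RNA per cell cannot be told apart.

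**Figure D1:**
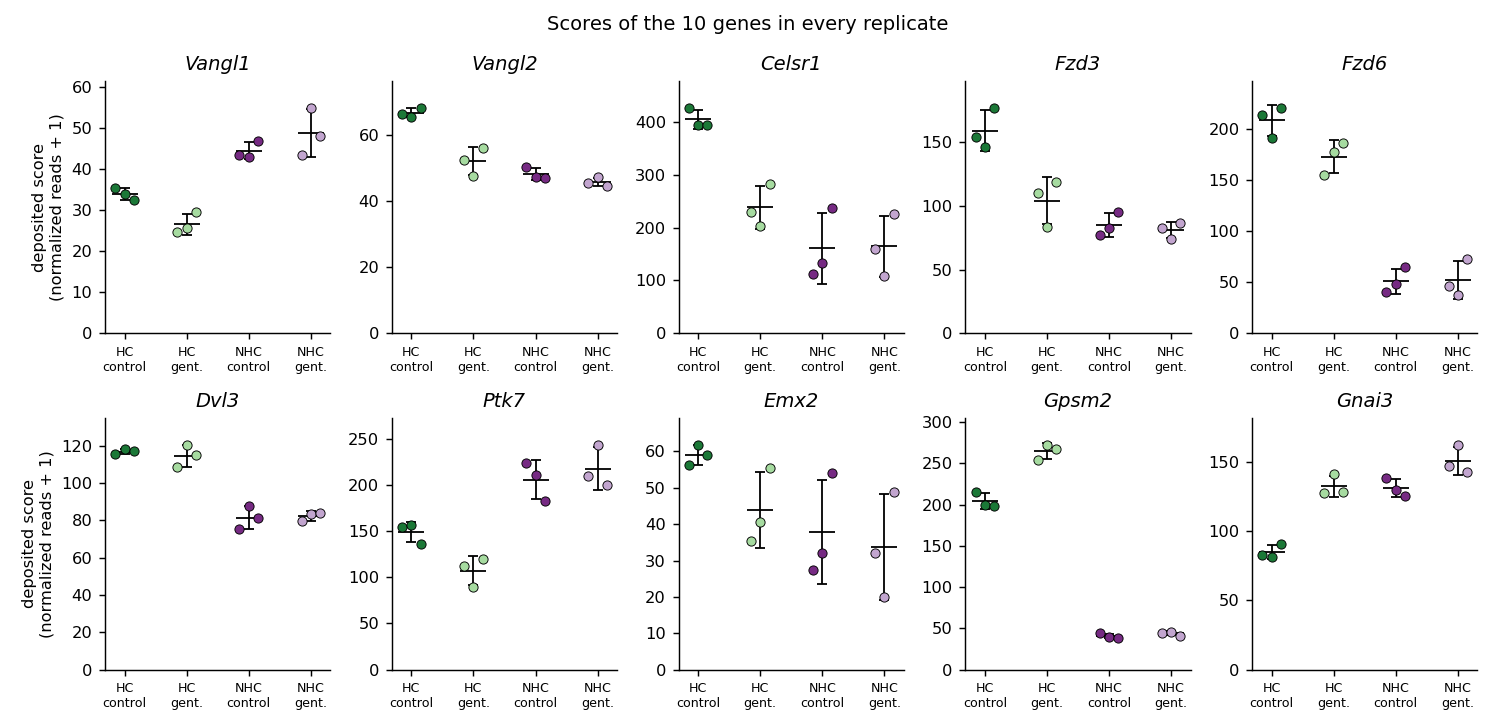
Normalized read score (reads divided by a library factor, plus 1) of each of the 10 genes in the 3 replicates of each group; horizontal bars are means and whiskers are SD, every axis starts at 0, and HC and NHC are hair cells and non-hair cells. Gpsm2 and Fzd6 are higher in hair cells, Gnai3 in treated hair cells overlaps control non-hair cells, and Celsr1, Fzd6 and Emx2 are spread widely among the non-hair cell replicates.

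The comparison of control hair cells with control non-hair cells asked where the genes were expressed before any drug. Of the 10 genes, 6 were higher in hair cells (Gpsm2, Fzd6, Celsr1, Fzd3, Dvl3 and Vangl2) and 3 were higher in non-hair cells (Gnai3, Ptk7 and Vangl1), at an adjusted p under 0.05 in limma, a linear model fitted to the log2 scores of all 16076 genes tested. By the same rule 74.1% of all genes tested were called, 31.9% higher and 42.2% lower in hair cells, so a call is common in this contrast. The median log2 difference of the 10 genes was 0.61, against -0.12 over all genes tested. In the same contrast 8 supporting cell markers had a median of 0.45, higher in the hair cell libraries. The part of supporting cell RNA in the differences below was not tested.

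Among the core membrane proteins, the Frizzled receptors and Celsr1 were the most enriched in hair cells. Fzd6 (chr15:39006034-39038188 of mm10, plus strand), a receptor shared between Wnt and polarity signalling, scored 214, 191 and 220.1 in control hair cells and 40.1, 47.9 and 64.1 in control non-hair cells. The lowest hair cell replicate was far above the highest non-hair cell replicate, and the difference was 2.06 ± 0.22 (SE) on the log2 scale, or 4.18-fold (limma, adjusted p = 4.97e-06). Its partner receptor Fzd3 (chr14:65192449-65262463, minus strand) scored 155, 146 and 177 against 77.0, 82.9 and 95.0, a 1.88-fold difference with no overlap (log2 0.91 ± 0.13 SE, limma adjusted p = 6.15e-05). Celsr1 (chr15:85898929-86033777, minus strand), the atypical cadherin that bridges neighbouring cells, scored 427, 395 and 394 in hair cells and 113, 132 and 237 in non-hair cells. Here too the groups did not overlap, although replicate 3 of the non-hair cells stood well above the other two, and hair cells were 2.66-fold higher (log2 1.41 ± 0.28 SE, limma adjusted p = 0.000787).

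The Vangl pair split between the populations. Vangl2 (chr1:172000960-172028444, minus strand), the gene mutated in the Looptail mouse, whose mutation misorients hair bundles, scored 66.4, 65.4 and 68.2 in control hair cells and 50.3, 47.2 and 46.9 in control non-hair cells, 1.39-fold higher in hair cells (limma, adjusted p = 7.23e-05). Its paralogue Vangl1 (chr3:102153583-102204693, minus strand) went the other way, with 35.4, 33.9 and 32.5 in hair cells and 43.5, 42.9 and 46.7 in non-hair cells, a log2 difference of -0.39 ± 0.10 (SE, limma adjusted p = 0.00385). Neither gene had overlapping replicates. Ptk7 (chr17:46564471-46629504, minus strand), a tyrosine kinase-like Wnt co-receptor without catalytic activity, also leaned to non-hair cells, with 224, 211 and 182 there and 154, 156 and 136 in hair cells (log2 -0.46 ± 0.12 SE, limma adjusted p = 0.00435). Dvl3 (chr16:20516982-20534010, plus strand), a Dishevelled adaptor that binds Frizzled inside the cell, scored 115, 118 and 117 in hair cells against 75.3, 87.6 and 81.2, 1.44-fold higher in hair cells (limma, adjusted p = 2.06e-05).

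The intrinsic orientation genes showed the sharpest contrast. Gpsm2 (chr3:108678638-108722309, minus strand), the scaffold that holds the inhibitory G proteins, scored 216, 200.1 and 198 in control hair cells and 44.0, 39.6 and 39.0 in control non-hair cells. It was 5.01-fold higher in hair cells (log2 2.33 ± 0.07 SE, limma adjusted p = 1.16e-10). Gnai3 (chr3:108107280-108146146, minus strand), its G protein partner, was lower in hair cells, with 82.3, 81.3 and 90.8 against 138, 129.7 and 125 (log2 -0.63 ± 0.07 SE, limma adjusted p = 1.14e-05). Within the same complex the scaffold was thus higher in hair cells and the G protein subunit higher in non-hair cells.

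Emx2 (chr19:59458372-59465357, plus strand), the homeobox factor that flips bundle direction in the hair cells that carry it, missed the threshold in this contrast. Its scores were 56.2, 61.9 and 59.0 in control hair cells and 27.5, 32.1 and 54.2 in control non-hair cells, so that the hair cells were close together and only replicate 3 of the non-hair cells came near them (log2 0.70 ± 0.31 SE, limma adjusted p = 0.0606). With replicate number as a block, the same difference had an adjusted p of 0.0168 in limma. That block covered all 4 groups, whereas only same-numbered control hair cell and control non-hair cell libraries met the rule for one. Without replicate 3 of the control non-hair cells the difference was 0.99 and called. An antisense gene, Emx2os, overlaps Emx2 by 264 bases, and strand-specific counting is not stated, so reads in the overlap cannot be assigned. Without gentamicin, Emx2os averaged 12.9 ± 1.71 in hair cells and 8.94 ± 4.72 in non-hair cells (SD, n = 3), below Emx2 in both. Gpsm2 likewise shares 203 bases with Clcc1 and 3746 bases with Gm27244 on the other strand. Ptk7 shares 65034 bases with Gm26904 on the other strand, counted over the gene span with introns. Gm27244 and Gm26904 have no score, so their part in the reads is not known. Vangl1, Fzd3, Fzd6 and Dvl3 have shorter overlaps with genes that have no score.

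**Figure D2:**
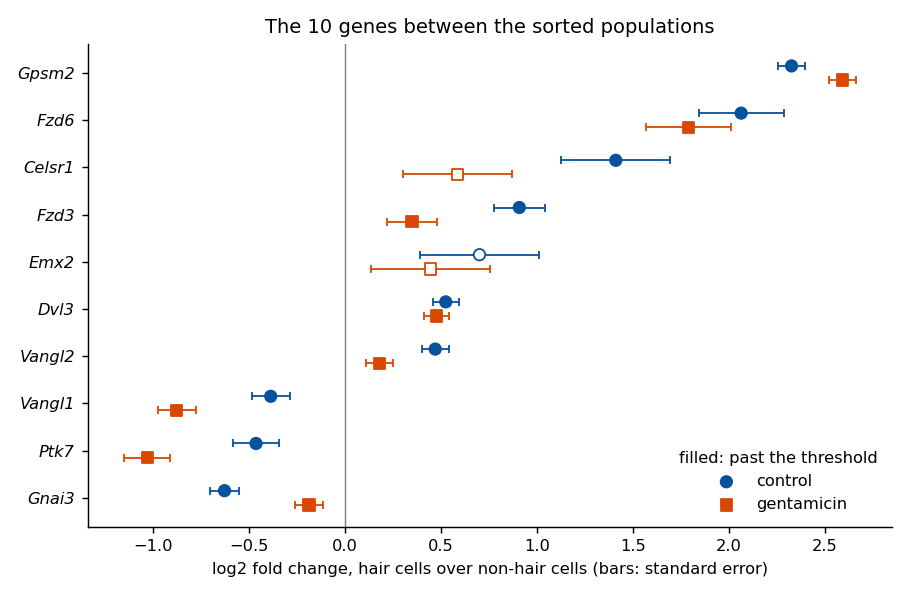
Log2 fold change of hair cells over non-hair cells for each of the 10 genes, without (circles) and with gentamicin (squares); bars are standard errors from limma with 3 replicates in each group, and filled symbols have an adjusted p under 0.05. Gpsm2 and Fzd6 lie above 1.7 in both conditions, and Vangl1, Ptk7 and Gnai3 lie below 0 in both.

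Levels of different genes can be set side by side only per length, so the score above 1 was divided by the length of the longest coding transcript in GENCODE M21, in kb. In control hair cells Gpsm2 stood highest of the 10 genes at 58.2 ± 2.71 per kb (SD, n = 3), followed by Fzd6 at 47.9 ± 3.53 and Celsr1 at 37.2 ± 1.72. Celsr1 and Ptk7, at 34.9 ± 2.58, were neighbours within their spread. Dvl3 (29.1 ± 0.37), Gnai3 (25.7 ± 1.60), Emx2 (19.9 ± 0.98) and Fzd3 (12.4 ± 1.25) followed. Vangl1 was lowest at 5.04 ± 0.23, with Vangl2 at 10.1 ± 0.21 per kb. Within families, Celsr1 exceeded Celsr3 (23.0 ± 0.78) and Celsr2 (14.6 ± 0.43) in control hair cells, Fzd6 exceeded Fzd3, and Dvl3 and Dvl1 (30.1 ± 0.90) were about equal and above Dvl2 (8.32 ± 0.89). Among the inhibitory G protein subunits Gnai2 was most abundant at 125 ± 1.03 per kb, ahead of Gnai3 and of Gnai1 at 1.49 ± 0.45. In control non-hair cells the order changed, with Ptk7 (48.3 ± 5.01 per kb) and Gnai3 (39.8 ± 1.95) at the top and Fzd3 (6.59 ± 0.72) and Vangl1 (6.64 ± 0.31) at the bottom, the last pair within their spread.

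In hair cells exposed to gentamicin, 4 membrane components had lower scores and both Gpsm2 and Gnai3 had higher scores than in control hair cells. Vangl1, Vangl2, Fzd3 and Ptk7 fell and Gpsm2 and Gnai3 rose, at p under 0.01 before adjustment and a change of more than 1.2-fold in limma, while Celsr1, Fzd6, Dvl3 and Emx2 did not pass. By this rule 27.5% of all genes tested were called in hair cells, 12.7% up and 14.8% down, and 6 of the 10 genes were. Scaling by total reads in place of the authors' factor turned the split over all genes from 2037 up and 2381 down to 2774 up and 1591 down, and among the 10 genes it removed the call of Vangl1. The median log2 change of the 10 genes was -0.36, against -0.09 over all genes tested. Replicates of treated and control hair cells did not overlap for 9 of the 10 genes, all but Dvl3, a state that 54.8% of all genes tested shared.

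**Figure D3:**
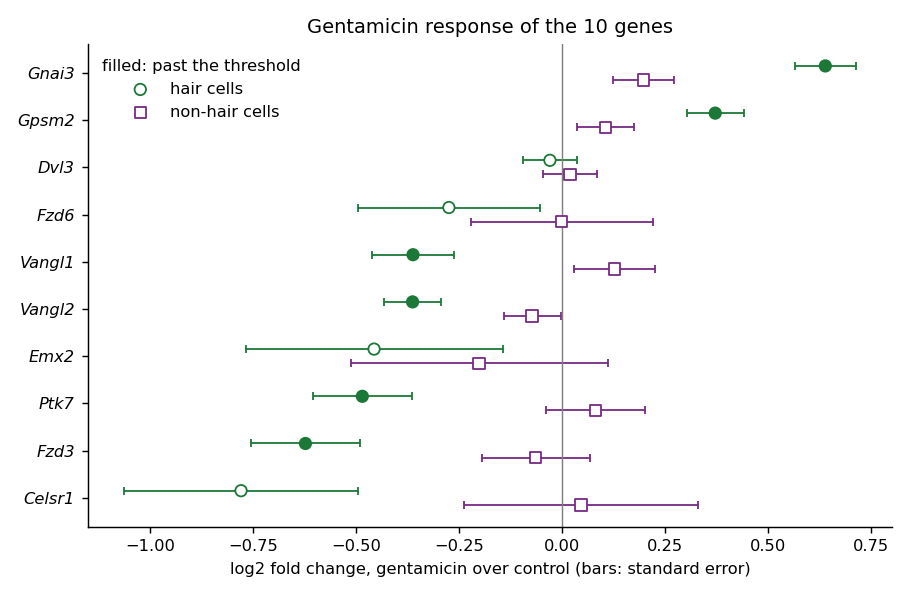
Log2 fold change after 0.5 mM gentamicin for 3 h in hair cells (circles) and non-hair cells (squares) for each of the 10 genes; bars are standard errors from limma with 3 replicates in each group, and filled symbols passed p under 0.01 before adjustment and a change of more than 1.2-fold. In hair cells the changes run from -0.78 for Celsr1 to 0.64 for Gnai3, and in non-hair cells none of the 10 is filled.

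Of the core membrane genes, Fzd3 showed the largest change that passed. It scored 155, 146 and 177 in control and 110.1, 83.7 and 119 in treated hair cells, with treated replicate 2 the lowest (log2 -0.62 ± 0.13 SE, limma adjusted p = 0.00457). Vangl2 scored 66.4, 65.4 and 68.2 in control and 52.5, 47.5 and 55.9 in treated hair cells. The controls were tightly grouped and every treated replicate lay below them: the score fell by 22.2% (log2 -0.36 ± 0.07 SE, limma adjusted p = 0.00266). Vangl1 went from 35.4, 33.9 and 32.5 to 24.6, 25.5 and 29.4, a change of the same size with a larger error (log2 -0.36 ± 0.10 SE, limma adjusted p = 0.0166). Its call was the least stable: it was lost without control replicate 1 or 2 or treated replicate 1 or 2 of the hair cells, where the log2 change lay between -0.36 and -0.31, and under scaling by total reads.

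Celsr1 had the largest change of the 10 and still missed the threshold. Its scores were 427, 395 and 394 in control hair cells and 229, 203 and 283 in treated hair cells, a wide gap with no overlap (log2 -0.78 ± 0.28 SE, limma unadjusted p = 0.0188, adjusted p = 0.0547). The error is estimated over all 4 groups, and Celsr1 was called when the hair cell groups were fitted alone. Fzd6 scored 214, 191 and 220.1 in control and 154, 177 and 186 in treated hair cells. All 3 treated replicates lay below the controls, but the gap between the groups was small and the change of -0.27 ± 0.22 (SE) did not pass (limma, adjusted p = 0.369).

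Dvl3 showed no detectable change: 115, 118 and 117 in control and 109, 121 and 115 in treated hair cells, with the groups interleaved (log2 -0.03 ± 0.07 SE, limma adjusted p = 0.776). The sign of this difference turned to 0.07 under scaling by total reads. Ptk7 scored 154, 156 and 136 in control and 112, 89.6 and 119 in treated hair cells and fell by 28.5% (log2 -0.48 ± 0.12 SE, limma adjusted p = 0.0107). As for Fzd3, Vangl2 and Celsr1, treated replicate 2 was lowest and treated replicate 3 highest of the treated group. Emx2 scored 56.2, 61.9 and 59.0 in control and 35.3, 40.7 and 55.4 in treated hair cells. Treated replicate 3 nearly reached the controls, and the change of -0.46 ± 0.31 (SE) did not pass (limma, adjusted p = 0.286).

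Gnai3 and Gpsm2 both rose in hair cells. Gnai3 scored 82.3, 81.3 and 90.8 in control and 128, 141 and 128 in treated hair cells, a rise of 55.8% with every treated replicate well above every control (log2 0.64 ± 0.07 SE, limma adjusted p = 0.00016). Gpsm2 scored 216, 200.1 and 198 in control and 255, 273 and 267 in treated hair cells, a rise of 29.4% that was again free of overlap (log2 0.37 ± 0.07 SE, limma adjusted p = 0.00224). Both calls held without each hair cell replicate in turn and under every scaling tried. Per kb, treated hair cells held 75.5 ± 2.64 of Gpsm2 and 40.2 ± 2.38 of Gnai3 (SD, n = 3).

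RefSeq promoter sequence on GRCm38.p6 was at hand for 6 of the 10 genes: Vangl2, Dvl3, Ptk7, Emx2, Gpsm2 and Gnai3. Shown are the stretches from 200 to 21 bases before the annotated start of the genes that rose, Gnai3 and Gpsm2, and of Ptk7, which fell. The coordinates are chr3:108146173-108146352 for Gnai3, chr3:108722320-108722499 for Gpsm2 and chr17:46629525-46629704 for Ptk7. All 3 are on the minus strand and are written 5′ to 3′, with matches to the motifs searched in capitals.
Gnai3: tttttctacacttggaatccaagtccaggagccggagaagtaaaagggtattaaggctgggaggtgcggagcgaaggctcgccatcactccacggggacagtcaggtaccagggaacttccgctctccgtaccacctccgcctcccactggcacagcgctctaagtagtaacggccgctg
Gpsm2: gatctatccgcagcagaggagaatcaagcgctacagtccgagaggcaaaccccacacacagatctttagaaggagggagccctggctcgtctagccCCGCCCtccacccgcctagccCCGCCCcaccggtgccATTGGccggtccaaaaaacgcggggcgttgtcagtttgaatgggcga
Ptk7: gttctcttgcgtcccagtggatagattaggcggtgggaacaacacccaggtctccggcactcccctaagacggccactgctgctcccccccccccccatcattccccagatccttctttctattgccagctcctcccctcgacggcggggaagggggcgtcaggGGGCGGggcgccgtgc

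Both strands of these 180 bases were searched for TGANTCA (AP-1), TGACGTCA (the cAMP response element), CAGNTG (an E-box), CCAAT (the CCAAT box) and GGGCGG (the GC box). Gpsm2 held 2 GC boxes and 1 CCAAT box, Ptk7 held 1 GC box, and Gnai3 held none of the 5 motifs, and no match overlapped another. Vangl2, which also fell and is not printed, held an E-box (CACCTG) and GC boxes (GGGCGG and CCGCCC) in the same window. Of 32851 mouse promoters of the same window, 27.9% held the GC box, 27.5% the CCAAT box, 34.8% the E-box, 5.06% the AP-1 motif and 1.21% the cAMP response element. The windows of Gnai3, Gpsm2 and Ptk7 had GC contents of 57.8%, 61.7% and 66.1%, above the median of 52.8% over all promoters. A match describes the letters only.

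The same exposure in non-hair cells moved none of the 10 genes past the threshold in limma, where 5.44% of all genes tested were called (512 up and 363 down, or 634 and 282 under scaling by total reads). At an unadjusted p under 0.05 there was 1, Gnai3, beside 2753 of all 16076 genes tested. With voom weights, the other tool run, the count past the threshold was 0 as well. Gnai3 scored 138, 129.7 and 125 in control and 147, 162 and 143 in treated non-hair cells, higher in every treated replicate (log2 0.20 ± 0.07 SE, limma unadjusted p = 0.021, adjusted p = 0.213). Gpsm2 scored 44.0, 39.6 and 39.0 in control and 45.1, 45.7 and 41.2 in treated non-hair cells, with overlapping groups (log2 0.11 ± 0.07 SE, limma adjusted p = 0.458). The other 8 genes overlapped too, with log2 differences between -0.20 for Emx2 and 0.13 for Vangl1. The median of the 10 was 0.03, against -0.01 over all genes tested.

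Whether the response differed between the populations was tested as an interaction over all 4 groups. It differed for Gnai3, Vangl1 and Ptk7 at an adjusted p under 0.05, 1 of them with the higher response in hair cells and 2 with the lower, where 13.4% of all genes tested were called, 6.85% up and 6.57% down (1102 and 1056 genes, or 1500 and 716 under scaling by total reads). For Gnai3 the hair cell response exceeded the non-hair cell response by 0.44 ± 0.10 (SE, log2, limma adjusted p = 0.0204). Vangl1 scored 43.5, 42.9 and 46.7 in control and 43.3, 54.8 and 48.1 in treated non-hair cells, where it was not called, while it fell in hair cells (difference of responses -0.49 ± 0.14 SE, log2, limma adjusted p = 0.0403). Ptk7 scored 224, 211 and 182 in control and 209, 243 and 199.9 in treated non-hair cells (difference of responses -0.57 ± 0.17 SE, log2, limma adjusted p = 0.0491). All 3 calls lie close to the threshold and depend on the libraries and, for Vangl1 and Ptk7, on the processing: Gnai3 lost its call without control hair cell replicate 1 (0.42) or 2 (0.41) or treated hair cell replicate 2 (0.39). Vangl1 was lost without 10 of the 12 libraries in turn and Ptk7 without 9 of them, with differences from -0.53 to -0.40 and from -0.63 to -0.44 in those fits. Scaling by total reads or by median of ratios lost both as well (-0.42 and -0.48 for Vangl1, -0.49 and -0.56 for Ptk7). Ptk7 was also lost with voom weights, with no minimum of reads and with RNA from other cells subtracted, at -0.57 in each. Scaling by total reads added a call for Gpsm2 (0.34), and leaving out treated hair cell replicate 3 added Fzd3 (-0.66) and Vangl2 (-0.34). Fzd3, Vangl2 and Gpsm2 had differences of -0.56, -0.29 and 0.27 that did not pass (limma, adjusted p = 0.0693, 0.0727 and 0.0926).

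Between the treated populations, 8 of the 10 genes were called at an adjusted p under 0.05, where 78.1% of all genes tested were, 34.6% higher and 43.5% lower in hair cells. Gpsm2 was 6.03-fold and Fzd6 3.46-fold higher in hair cells, and Ptk7 and Vangl1 were at 0.49 and 0.545 of the non-hair cell level (limma, adjusted p = 4.88e-11, 1.38e-05, 8.59e-06 and 6.1e-06). Dvl3 was 1.39-fold higher in hair cells. Gnai3, Vangl2 and Fzd3 lay near each other in the populations, with log2 differences of -0.19, 0.18 and 0.35, and their calls were lost when the treated groups were fitted alone. Gnai3 also lost its call under scaling by total reads (-0.14) and by median of ratios (-0.05). Each of the 3 was lost without treated hair cell replicate 1 or 3 and without treated non-hair cell replicate 1, Gnai3 and Fzd3 also without treated non-hair cell replicate 2, and Vangl2 also without replicate 3. Those fits gave -0.20 to -0.13 for Gnai3, 0.13 to 0.18 for Vangl2 and 0.25 to 0.37 for Fzd3. Treated non-hair cells and treated hair cells overlapped for Celsr1 and Emx2, which were not called (log2 0.59 ± 0.28 and 0.45 ± 0.31 SE, limma adjusted p = 0.0781 and 0.208), and for Fzd3. Without treated non-hair cell replicate 3 both Celsr1 and Emx2 were called, at 0.85 and 0.76. The control and the treated contrast use separate libraries, and beside each other the log2 difference of Gnai3 was -0.63 without and -0.19 with gentamicin (-0.05 for the latter with median of ratios), that of Celsr1 1.41 and 0.59, and that of Ptk7 -0.46 and -1.03.

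Markers of supporting cells moved with several of these genes and are given here for both populations. The list of 8 (Sox2, Prox1, Jag1, Fgfr3, Hes1, Hey1, Gjb2 and Gjb6) was lower in treated than in control hair cells for all 8 genes, and Hes1, Hey1 and Gjb2 passed the threshold. Their summed scores were 1535, 1493 and 1797 in control and 1087, 695 and 1274 in treated hair cells, replicates in order, so that treated replicate 2 was lowest and replicate 3 highest. None of the 8 was without reads in a hair cell library: Sox2 scored 226, 214 and 264 in control and 158, 111 and 223 in treated hair cells. Of the 7 hair cell markers none passed in this contrast, with summed scores of 10604 to 11050 in control and 8890 to 9964 in treated hair cells. The order of the treated replicates, 3 above 1 above 2, was that of Celsr1, Fzd3, Vangl2 and Ptk7 too. Vangl1, Fzd6 and Emx2 were also highest in replicate 3 but lowest in replicate 1, while Gnai3, Gpsm2 and Dvl3 were highest in replicate 2. The part of the supporting cell markers in the falls was not tested. Without treated replicate 2 the log2 change was -0.47 for Fzd3, -0.30 for Vangl2 and -0.36 for Ptk7, all still called, and -0.67 for Celsr1 and -0.34 for Vangl1, not called. Of the 5 mesenchymal markers, 2 fell (Col1a2 and Col3a1) and none rose, and a subtraction of RNA from other cells, estimated from 232 genes at 2.78% to 5.22% of control and 1.48% to 1.81% of treated hair cell libraries, left all 6 calls in place. Those 232 genes are at least 16-fold lower in hair cells than in non-hair cells, whereas the supporting cell markers had a median log2 difference of 0.45, higher in hair cells, when the control populations were compared, so the subtraction does not bear on supporting cell RNA.

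**Figure D4:**
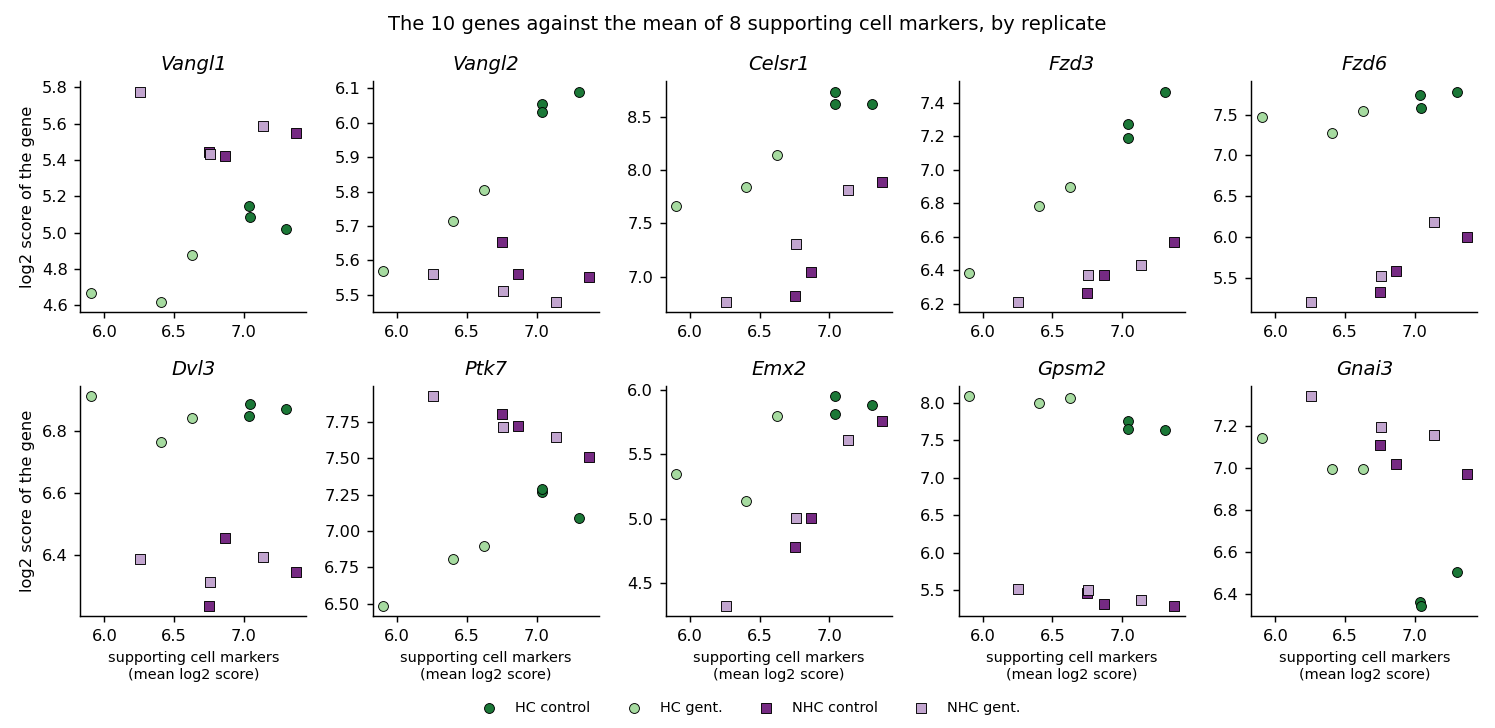
Log2 score of each of the 10 genes against the mean log2 score of 8 supporting cell markers in each of the 12 libraries; circles are hair cells and squares non-hair cells, dark for control and light for gentamicin. Treated hair cells lie to the left of control hair cells in every panel. Among the non-hair cells, Celsr1, Fzd3, Fzd6 and Emx2 are highest in the libraries with the highest markers.

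In non-hair cells the same markers separated the replicates. Their summed scores were 1082, 1136 and 1654 in control and 1154, 911 and 1448 in treated non-hair cells, highest in replicate 3 of both groups. Celsr1, at 237 and 226, Fzd6, at 64.1 and 72.5, Emx2, at 54.2 and 49.0, and Fzd3, at 95.0 and 86.3, were each highest in replicate 3 of the control and of the treated group. In treated replicate 2, with the lowest markers, Celsr1 (109), Fzd6 (37.0), Emx2 (20.04) and Fzd3 (74.2) were at their lowest of all 6 non-hair cell libraries. Ptk7 (243), Vangl1 (54.8), Gnai3 (162) and, by a small margin, Gpsm2 (45.7) were at their highest there. Mesenchymal markers ran the other way, with a summed score of 8908 in treated replicate 2 and 4728 in control replicate 3. The share of each cell type in these sorts was not measured.

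The wider pathway was followed with 80 further genes in 7 groups, of which 76 were in the tables and all 76 were tested. In treated hair cells 6 of them rose and 13 fell, beside 12.7% up and 14.8% down of all genes tested, with a median log2 change of -0.19 against -0.09. The core group, without the genes described above, had Prickle2 up and Celsr2 and Dvl2 down among 9. Prickle2, which caps the Vangl side of the junction, scored 19.3, 22.3 and 26.9 in control and 27.6, 31.2 and 33.4 in treated hair cells (log2 0.44 ± 0.14 SE), and Celsr2 went from 151, 159 and 158 to 86.6, 73.8 and 121 (log2 -0.76 ± 0.25 SE). Both were named by a rule that asks for no overlap of replicates. Both calls lay just under the threshold (limma, unadjusted p = 0.00918 for Prickle2 and 0.00962 for Celsr2). Prickle2 rose while its junctional partners Vangl1 and Vangl2 fell, with the call of Vangl1 unstable as given above.

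Of 18 Wnt ligands, co-receptors and secreted modulators besides Ptk7, none rose, Wnt5a, Ror2, Porcn and Cthrc1 fell, and the median log2 change was -0.54. Wnt5a, a ligand of the polarity branch, scored 28.0, 37.0 and 35.7 in control and 24.4, 17.7 and 23.0 in treated hair cells (log2 -0.63 ± 0.13 SE). It was far higher in non-hair cells, at 186 ± 3.15 (SD, n = 3) in control and 188 ± 15.9 in treated libraries. Cthrc1, a secreted protein that steers Wnt towards the polarity branch, fell by 0.68 ± 0.18 (SE) on the log2 scale. Among the giant cadherins Fat and Dachsous and their kinase Fjx1, 4 of 6 fell (Fat4, Dchs1, Fjx1 and Fat1), with a median of -0.88. Fat4 scored 17.3, 21.4 and 17.1 in control and 9.0, 6.6 and 9.6 in treated hair cells, against 92.5 ± 11.2 (SD, n = 3) in control non-hair cells. Fat1 scored 111, 122 and 135 in control and 81.5, 51.3 and 73.0 in treated hair cells, against 384 ± 49.8 in control non-hair cells. All 4 of these genes, and Wnt5a, were lower in control hair cells than in control non-hair cells. The share of RNA from other cells was lower in treated than in control hair cells, as given above. The subtraction was fitted over all genes tested, but its results for these genes are not given here. The part of that RNA in their falls was not tested further.

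The genes around Gpsm2 and Gnai3 divided. Of 16 further genes of bundle orientation and apical polarity, Ric8b, Stk32a and Pard3 rose and Gpsm1 and Gnai2 fell, with a median of 0.02. Stk32a was near the floor, with means of 2.01 in control and 2.92 in treated hair cells, where 1 means no reads. Ric8b, of a family of chaperones and exchange factors for G protein alpha subunits, had the largest rise, from 101, 92.9 and 84.3 to 142, 147 and 156 (log2 0.68 ± 0.08 SE, limma adjusted p = 0.000151). Whether Ric8b serves Gnai3 or other alpha subunits in these cells was not tested. The hair cell response of Ric8b also exceeded that of non-hair cells by 0.66 ± 0.11 (SE, log2, limma adjusted p = 0.00508). Ric8, listed in the same group, averaged 70.9 in control and 80.6 in treated hair cells and did not pass. Gpsm1, the paralogue of Gpsm2, went from 24.6, 34.4 and 29.2 to 16.4, 10.6 and 18.8 (log2 -0.97 ± 0.18 SE), the reverse of Gpsm2. Gnai2, the paralogue of Gnai3, went from 280, 275 and 277 to 219, 174 and 223, while Gnai3 rose, and per kb its mean fell from 125 to 92.2. Gpsm1 and Gnai2 both scored higher in control non-hair cells, at 101 ± 7.78 and 466 ± 21.7 (SD, n = 3). In both, treated hair cell replicate 2 was lowest and replicate 3 highest of the treated group. The part of RNA from other cells in their falls was not tested. Pard3, an apical polarity scaffold, rose by a log2 change of 0.33 ± 0.07 (SE).

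Among 17 partners and effectors of the pathway, Rock1 rose (log2 0.37 ± 0.08 SE) and Llgl1 fell, with a median of -0.01. Rock1 is a kinase through which polarity signals reach the actin cytoskeleton. Among 7 cilium genes linked to bundle polarity, Bbs4, a subunit of the BBSome that serves ciliary traffic, rose from 43.0, 41.8 and 40.6 to 60.7, 62.0 and 58.3 (log2 0.53 ± 0.08 SE). None of the 3 stereocilia tip partners of Gpsm2 and Gnai3 passed (Myo15, Whrn and Eps8, by symbol), and their median was -0.29. In non-hair cells, where 5.44% of all genes tested were called, 1 of the 76 genes passed: Kif3a, a motor subunit of ciliary transport, went from 89.3, 105 and 97.7 to 76.4, 73.5 and 80.8 (log2 -0.34 ± 0.07 SE, limma adjusted p = 0.065).

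**Figure D5:**
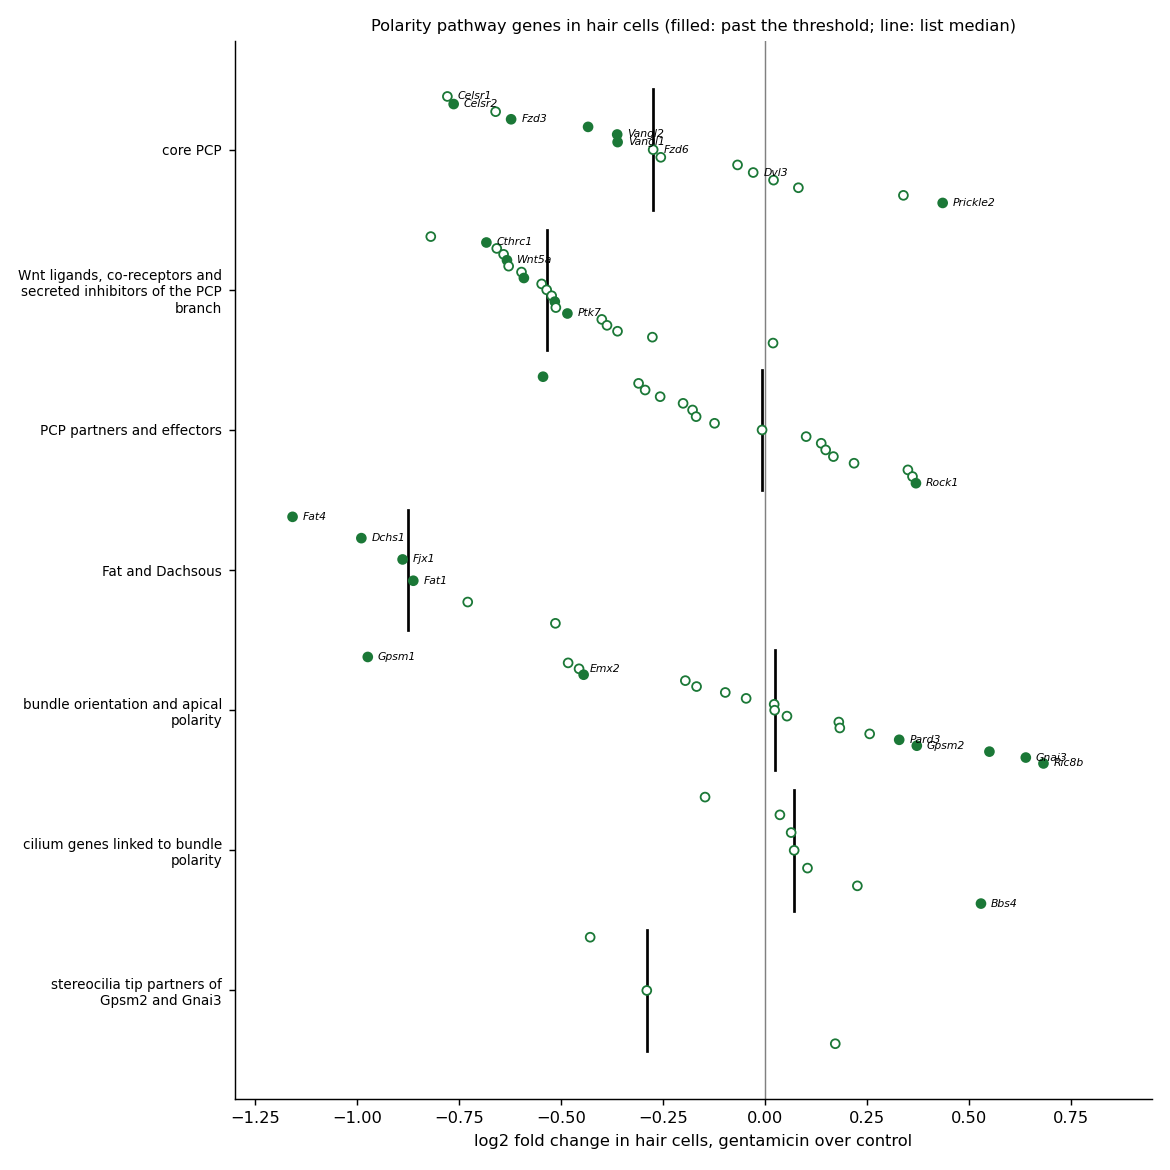
Log2 fold change after gentamicin in hair cells of every tested gene of the 7 polarity gene groups, 1 point a gene, with vertical lines at the group medians; filled points passed p under 0.01 before adjustment and a change of more than 1.2-fold, and names mark the 10 genes and the pathway genes named in the text by rule. Wnt, Fat and Dachsous genes lie mostly below 0, and orientation genes lie on both sides.

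Between the control populations, 27 of the 76 further genes were higher in hair cells and 34 were lower, shares close to the 31.9% and 42.2% of all genes tested. Partners of Gpsm2 and Gnai3 were among those with the highest ratios. Myo15, the myosin that carries the tip complex, scored 1155 ± 69.0 (SD, n = 3) in hair cells and 2.004 ± 0.27 in non-hair cells. Insc, an adaptor that binds Gpsm2, scored 269.8 ± 27.0 and 9.87 ± 1.78. Ccdc88c (Daple), which ties Dishevelled to the G proteins, scored 317 ± 18.9 and 39.7 ± 9.09, the cadherin Celsr3 267 ± 9.06 and 25.3 ± 12.5, and the ciliary effector Intu 148 ± 7.48 and 27.5 ± 1.71. Higher in non-hair cells were the secreted Wnt inhibitors Wif1 (39.7 ± 14.8 there and 4.77 ± 2.48 in hair cells) and Sfrp2 (57.8 ± 7.31 and 8.82 ± 1.15). The ligands Wnt4 (25.8 ± 6.58 and 3.81 ± 0.38) and Wnt5a followed, as did Dchs1 (219 ± 29.6 and 42.7 ± 5.84) and Fjx1 (46.3 ± 7.02 and 9.14 ± 1.91). Of the 18 genes of the Wnt group besides Ptk7, co-receptors and secretion factors included, 12 were lower and 1 was higher in hair cells, where 42.2% and 31.9% of all genes tested were.

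For 3 genes the nearest profiles were sought among all genes tested, as the smallest mean absolute difference of centred log2 scores over the 12 libraries. Nearest to Emx2 were Fgfr3 (0.12), a supporting cell marker of the list above, Sox21 (0.12) and Cdh4 (0.13). Fgfr3 averaged 225 in control and 189 in treated hair cells, and 171 and 158 in control and treated non-hair cells. Nearest to Gpsm2 were Cdyl2 (0.079), Rgs12 (0.088) and Zdhhc16 (0.0886), and of these Rgs12, a regulator of G protein signalling, averaged 302 in control and 349 in treated hair cells against 57.1 and 65.1 in non-hair cells. Nearest to Vangl2 were Flii (0.0483), Rbck1 (0.0485) and Gm7367 (0.0512). Flii averaged 149 in control and 123 in treated hair cells, against 116 and 113 in non-hair cells.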

How the data were processed

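RNA came from GFP-positive and GFP-negative cells sorted from organ cultures, with 3 replicates in each of 4 groups. The deposited values are scores, made by the authors from 50-base single-end reads of a poly(A) library kit, trimmed and aligned to mm10 with TopHat 2. The methods call these scores RPKM, but most of their low values step in equal units above 1 whatever the gene: 82.8% to 83.8% of low values in a library came out as whole reads (tolerance 0.1 of a read) and the rest did not. They were used as normalized reads plus 1. Library factors are not given in the sources used here. The study's text calls the replicates biological; which animals or cultures each came from is not given in the sources used here.

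The log2 of the deposited score was fitted with limma 3.58.1 (R 4.3.3) with an intensity trend, in 1 model of all 4 groups, on 16076 genes with at least 100 reads over 12 libraries. Gentamicin contrasts were called at p under 0.01 before adjustment and a change of more than 1.2-fold, after the study, and the other contrasts at a Benjamini-Hochberg adjusted p under 0.05. The fit was tested on simulated data. Members, gene lists and tests were chosen with earlier results of these data known. From the lists, the text names up to 8 called genes per direction of each gentamicin contrast (6 between populations), the largest in log2 change with a mean score of at least 5 and no overlap of replicates; 1 gene that this rule takes is not reported here. A few further list genes (Gnai2, Llgl1, Stk32a, Dvl2, Ror2, Porcn and the families compared per kb) were named after their values were seen. Profiles were compared for Emx2, Gpsm2 and Vangl2, with 3 neighbours each. Replicate numbers are column numbers. Deviations of same-numbered control hair cell and control non-hair cell libraries correlated at 0.216, 0.316 and 0.2, which met the rule for a block (each over 0.1); the other group pairs did not. Alternatives were another scaling, offset, minimum of reads, weights, threshold, replicate block, groups fitted alone, subtraction of RNA from other cells and each replicate left out. Python 3.11.15 with pandas 2.3.3 and numpy 2.4.6 made the tables. Promoters are RefSeq's on GRCm38.p6 and gene positions GENCODE M21's.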

Additional observations from a re-analysis of the deposited data

Results flagged for a closer look

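The gentamicin response differed between hair cells and non-hair cells for 3 of the 10 genes, by the interaction test of limma over all genes, where 13.4% of all genes tested were called. The response of hair cells exceeded that of non-hair cells by 0.44 on the log2 scale for Gnai3 (adjusted p = 0.0204 in limma). It was lower than that of non-hair cells for Vangl1, with a difference of -0.49 (adjusted p = 0.0403 in limma), and for Ptk7, with a difference of -0.57 (adjusted p = 0.0491 in limma). Gnai3 was higher with gentamicin in 3 of 3 hair cell and 3 of 3 non-hair cell replicates than in any control of the same population. In hair cells 54.8% of all genes tested were free of overlap, up or down. That share was not counted in non-hair cells, where Gnai3 was not called. Left out in turn, 10 of the 12 libraries ended the call of Vangl1 (differences of -0.53 to -0.40) and 9 that of Ptk7 (-0.63 to -0.44). None of the 10 genes was called without control hair cell replicate 1 or 2 or treated hair cell replicate 2, where Gnai3 was at 0.42, 0.41 and 0.39. No cause was tested.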

How the results depend on the processing

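Of the called genes, Gnai3, Gpsm2, Fzd3, Vangl2 and Ptk7 kept their hair cell calls under each alternative except a threshold of 1.5-fold, which left 2 of 10 (Fzd3 and Gnai3). Leaving out each replicate gave 5 to 6 calls in hair cells, 0 in non-hair cells, 0 to 5 for the difference of responses, 9 to 10 between control and 5 to 9 between treated populations. The difference of responses kept 1 call (Gnai3) with scaling by median of ratios, and the treated populations kept 5 when fitted alone. The cause of these losses was not tested, beyond the fewer libraries in such fits. Scaling by median of ratios moved the median of all genes between the control populations from -0.12 to -0.01 on the log2 scale; no gene of the 10 changed direction in that contrast.

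Changes of direction were limited to log2 differences that were not called. Scaling by total reads gave 0.0678 for Dvl3 in hair cells, 0.0246 for its difference of responses and 0.0226 for Fzd6 in non-hair cells, where median of ratios gave 0.00318. Without each replicate in turn, Dvl3 ran from -0.0653 to 0.00907 in hair cells and from -0.104 to 0.00612 for the difference of responses, and Emx2 from -0.583 to 0.0615 for that difference. In non-hair cells the ranges were -0.21 to 0.37 for Celsr1, -0.131 to 0.0199 for Fzd3, -0.27 to 0.21 for Fzd6, -0.0349 to 0.0748 for Dvl3, -0.0021 to 0.146 for Ptk7 and -0.52 to 0.13 for Emx2.

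A replicate block called Celsr1 in hair cells (adjusted p = 0.0171 in limma) and between the treated populations, made Fzd3 and unmade Ptk7 for the difference of responses, and, beside Emx2 between the control populations, changed no other call. Same-numbered libraries of the other group pairs correlated between -0.232 and 0.683. At these depths, 517 reads was the lowest count of any of the 10 genes in a library (Emx2).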
